A study of Mus musculus with 9 samples.

Results

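The TGF-beta and BMP superfamily was represented by 67 of the 55450 genes counted in EYFP+ cells sorted from the mouse mammary gland. Members were found by gene symbol, and the rule used no measured value, although the family was taken up with earlier results of these data known. They were the ligands (Tgfb1 to Tgfb3, the Bmp and Gdf genes, and the subunits Inha, Inhba, Inhbb, Inhbc and Inhbe), the receptors and co-receptors (the Tgfbr, Bmpr and Acvr genes and Eng), the Smad genes, Id1 to Id4, the latent TGF-beta binding proteins Ltbp1 to Ltbp4, and the secreted antagonists or intracellular modulators such as Grem1, Nog, Chrd, Fst, Fstl3, Skil and Bambi. Bmp1, a procollagen protease, and Bmp2k, a protein kinase, matched by name without being ligands of the superfamily.

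RNA was sequenced from 9 libraries, with 3 libraries for each of 3 genotypes of adult nulliparous mice. All 3 genotypes carried K8CreERT2, a tamoxifen-inducible Cre driven by the promoter of the luminal keratin Krt8, together with lsl-EYFP, a reporter that Cre switches on, and all received 5 doses of 2 mg of tamoxifen, with live EYFP+ cells sorted 7 days after the last dose. Control mice had no floxed gene besides these alleles, the LATS1/2-KO group also carried floxed Lats1 and Lats2 (LATS1/2f/f), and the LATS1/2-Sox9-KO group carried both LATS1/2f/f and floxed Sox9 (Sox9f/f). EYFP reports recombination of the reporter and not of each floxed allele, and nothing states that the libraries of a group came from separate mice, so p-values measure only the spread between these libraries. Total counts were 44167762 to 47003587 per control library, 50508666 to 61745346 per library labelled LATS1/2-KO and 55503365 to 61967651 per library labelled LATS1/2-Sox9-KO. Values are given for replicates 1, 2 and 3 of each group in that order, as normalized counts, which are counts scaled to the mean effective size of the 9 libraries. Fold changes are log2 values ± SE from 1 edgeR quasi-likelihood fit of all 9 libraries, with Benjamini-Hochberg adjustment of p-values across the 19357 genes that passed a filter on low counts. Pairs of fold changes give the LATS1/2-KO group against control first and the LATS1/2-Sox9-KO group against control second. A gene was called, and is said to have risen or fallen, where its log2 fold change exceeded 1 in size and its adjusted p was 0.05 or less.

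The targeted genes were examined first. Lats1 stood at 5672, 5929 and 5940.4 in control, 2090.1, 1923 and 2336 in the libraries labelled LATS1/2-KO and 2058, 1844 and 1709 in those labelled LATS1/2-Sox9-KO. Its values in the deletion groups lay below all control values. Lats1 had log2 fold changes of -1.47 ± 0.11 (adjusted p = 7.07e-06) and -1.64 ± 0.11 (adjusted p = 2.8e-06). Lats2 stood at 1039, 865 and 1219.7 in control, 1256, 1434 and 1723 in the libraries labelled LATS1/2-KO and 1957, 1580.4 and 1239.7 in those labelled LATS1/2-Sox9-KO, so its gene-level counts were not lower in either deletion group. Lats2 had log2 fold changes of 0.50 ± 0.20 (adjusted p = 0.0571) and 0.61 ± 0.20 (adjusted p = 0.024). Sox9 stood at 23313, 19948 and 21534 in control, 7205, 9506 and 12433 in the libraries labelled LATS1/2-KO and 8812, 6756 and 6459.8 in those labelled LATS1/2-Sox9-KO and fell in both deletion groups, including the one without a floxed Sox9 allele. Sox9 had log2 fold changes of -1.15 ± 0.19 (adjusted p = 0.000682) and -1.56 ± 0.20 (adjusted p = 9.39e-05), the first of which was -0.97 without LATS1/2-KO 1. Counts cover whole genes and floxed exons were not examined, so the groups are named here by their labels. All 14 luminal markers examined had at least 10 counts in all 9 libraries, and more of them fell than rose. In the LATS1/2-KO group 0 rose and 6 fell by edgeR and by DESeq2 (median log2 fold change -0.61, with 2 higher and 8 lower at an unadjusted p under 0.05 by edgeR), among them Esr1, Pgr, Prlr, Foxa1 and Gata3, and in the LATS1/2-Sox9-KO group 2 rose, Krt8 and Krt18, and 8 fell (median -1.37). Their summed level, of which Krt18 was the most abundant in every library, in counts per kilobase of exon and 1000000 counts of the library, was 9905 to 11201 in control, 11027 to 11374 in the LATS1/2-KO group and 15915 to 19166 in the LATS1/2-Sox9-KO group. The summed level of 10 basal or myoepithelial markers was 31.6 to 39.7 in control, 1646 to 2849 in the LATS1/2-KO group and 1730 to 4122 in the LATS1/2-Sox9-KO group, with none at 0 and with Krt14 the most abundant in all 6 deletion libraries, at 1237 to 3695. Of these 10 markers 5 rose and 3 fell in the LATS1/2-KO group (median log2 fold change 1.02), and 4 rose and 4 fell in the LATS1/2-Sox9-KO group (median -0.09), with Trp63, Myh11 and Mylk lower in both. Of all genes tested, 17.1% were called higher and 17.5% lower in the LATS1/2-KO group, and 17.8% and 19.6% in the LATS1/2-Sox9-KO group.

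Ligands of this superfamily are secreted dimers that bring together type I and type II receptor kinases, which phosphorylate receptor-regulated Smad proteins that join Smad4 and enter the nucleus. TGF-beta and activin signal mainly through Smad2 and Smad3, and BMPs through Smad1, Smad5 and Smad9, with the Id genes as widely used BMP targets. Before any receptor is reached, TGF-beta must be freed from a latent complex that the LTBP proteins tether to the matrix, activins and BMPs are bound by secreted antagonists such as follistatin and noggin, and in the mammary gland TGF-beta is known for restraining ductal growth. LATS1 and LATS2 are Hippo pathway kinases that keep the coactivators YAP and TAZ, and through them the TEAD factors, inactive.

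Of the tested members in the LATS1/2-KO group, the secreted antagonists Nog, Fst and Fstl3 rose, while 3 of 4 latent TGF-beta binding proteins, 3 of 7 type I receptors and both co-receptors fell. Among ligand genes, Inhba, Tgfb2, Bmp4, Bmp8b and Bmp15 rose and Tgfb1, Inhbb, Bmp3 and Gdf9 fell. Id1, Id2 and the type II receptor gene Acvr2a rose, Id4 and Smad3 fell, and the antagonist gene Chrd was not called. In the LATS1/2-KO group against control, 12 of the 54 members tested rose, 14 fell and 28 were not called, against a background of 17.1% of all tested genes called higher and 17.5% called lower. In the LATS1/2-Sox9-KO group against the same control libraries, 12 rose, 13 fell and 29 were not called, with backgrounds of 17.8% and 19.6%. The members' median log2 fold changes were -0.08 and -0.27, beside 0.04 and 0.01 over all genes tested. As shares of the members tested, the calls came to 22.2% higher and 25.9% lower in the first comparison and to 22.2% and 24.1% in the second, not far from the background, and it is the identity of the members and not their number that is described. The sorted cells were measured in bulk, so fewer cells of a type and less RNA per cell cannot be told apart.

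**Figure D1:**
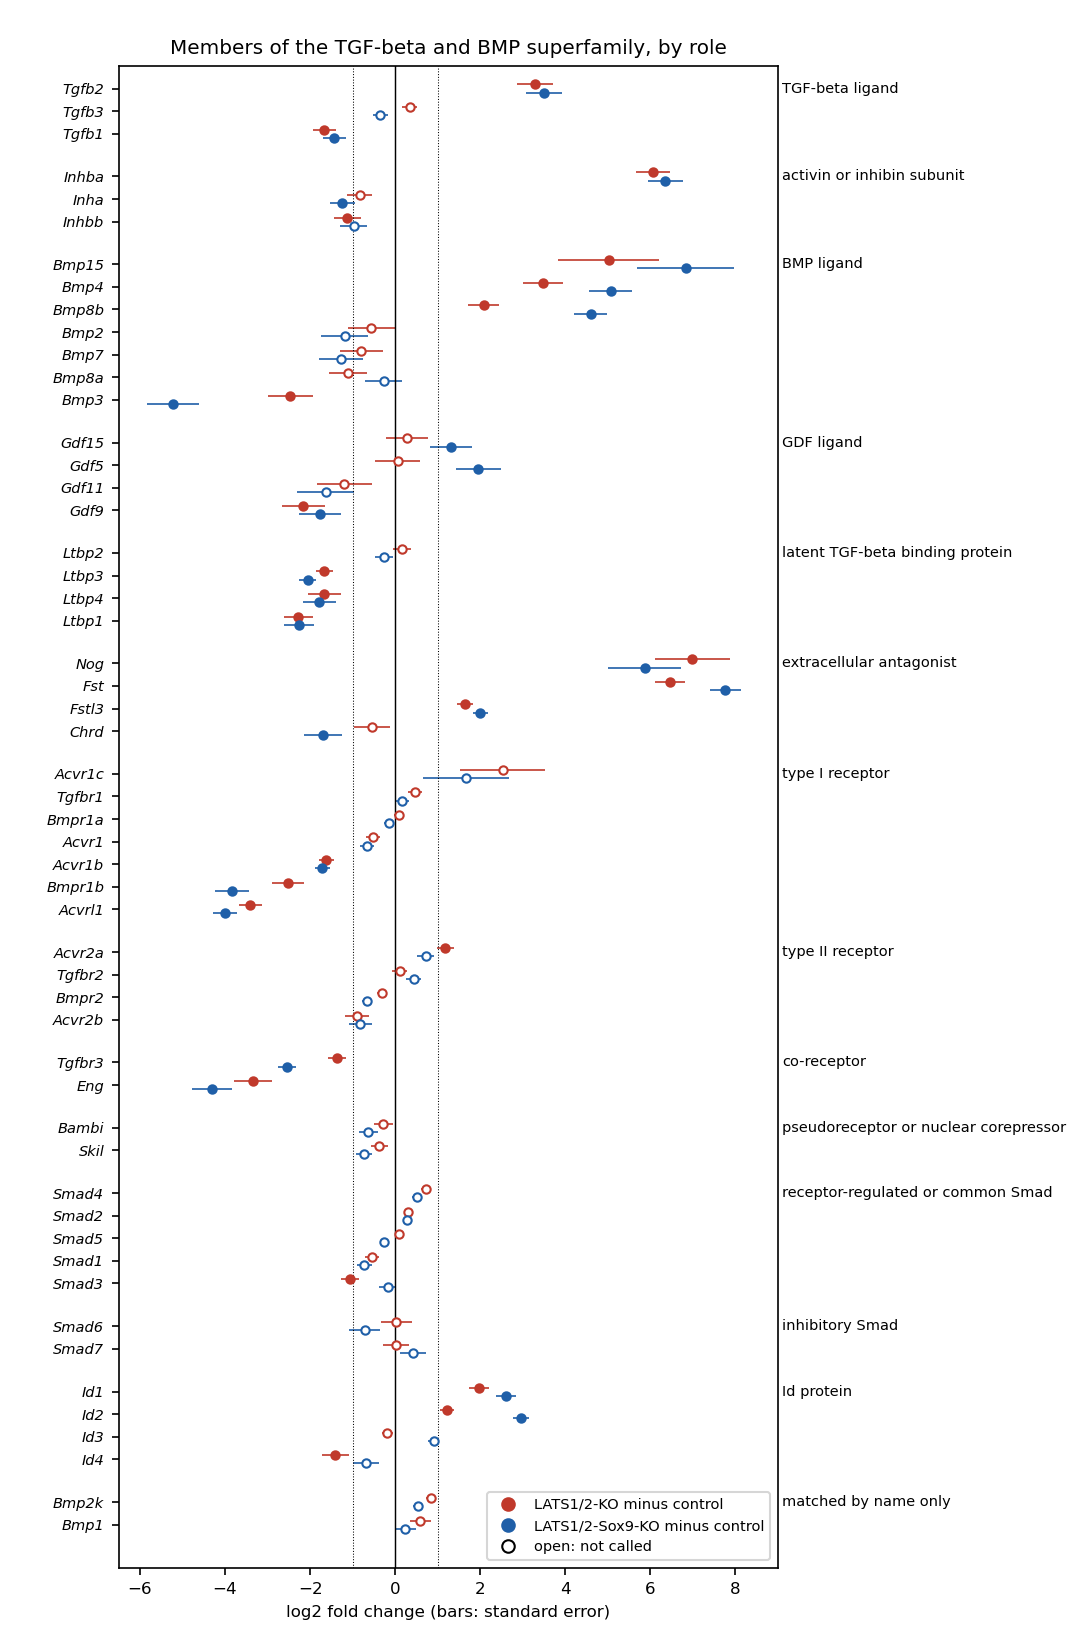
Log2 fold changes of tested members, grouped by role, for the LATS1/2-KO group minus control (red) and the LATS1/2-Sox9-KO group minus control (blue). Bars are standard errors, filled points were called and dotted lines mark a log2 fold change of 1 in either direction; the values run from Nog at 6.99 and Fst at 7.77 down to Acvrl1 at -3.40 and Bmp3 at -5.22.

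Promoter sequence was examined in 300-base windows, from 250 bases before to 50 bases after annotated starts (RefSeq, GRCm38.p6), which matched 47 of the 67 members with 58 promoters. Both strands were searched for CAGACA, a Smad3 and Smad4 binding element, for GGCGCC, a GC-rich Smad element, and for CATTCC, the core of the TEAD site; none of these 3 motifs contains another. CAGACA occurred in 17.2% of member promoters and in 21% of all 32851 promoters, GGCGCC in 27.6% and 11.9%, and CATTCC in 10.3% and 14.7%. Of the 12 members that rose in the LATS1/2-KO group, 8 had a promoter in the table, and CAGACA was found in those of Tgfb2, Bmp8b and Fstl3. It was also found for 3 of the 10 members with a promoter that fell, Bmpr1b, Ltbp1 and Ltbp3. The first 3 genes, a ligand of each branch and an antagonist of activin, are shown as examples of where the match lies. The 250 bases upstream of their starts are shown 5′ to 3′ on the gene's strand, Tgfb2 at chr1:186705990-186706239 (minus strand), Bmp8b at chr4:123104911-123105160 (plus strand) and Fstl3 at chr10:79777024-79777273 (plus strand). Capitals mark the CAGACA match, which in Fstl3 is its reverse complement TGTCTG.
Tgfb2: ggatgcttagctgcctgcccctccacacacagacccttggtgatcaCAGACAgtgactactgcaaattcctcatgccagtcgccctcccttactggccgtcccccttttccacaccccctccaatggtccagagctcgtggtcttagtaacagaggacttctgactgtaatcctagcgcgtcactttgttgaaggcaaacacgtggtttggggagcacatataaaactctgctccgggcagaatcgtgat
Bmp8b: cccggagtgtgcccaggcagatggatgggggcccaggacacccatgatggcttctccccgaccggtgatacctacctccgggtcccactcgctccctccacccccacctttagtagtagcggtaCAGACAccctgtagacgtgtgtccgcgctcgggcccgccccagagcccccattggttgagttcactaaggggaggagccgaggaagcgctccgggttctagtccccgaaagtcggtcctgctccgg
Fstl3: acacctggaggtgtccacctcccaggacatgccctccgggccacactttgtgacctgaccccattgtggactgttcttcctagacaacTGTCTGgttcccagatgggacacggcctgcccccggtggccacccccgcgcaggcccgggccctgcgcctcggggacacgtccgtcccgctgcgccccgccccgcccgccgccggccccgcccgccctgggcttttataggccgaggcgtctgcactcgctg
The matches began 204, 126 and 162 bases before the start, respectively. Among the other increased members with a promoter in the table, CATTCC was found in that of Bmp15 and GGCGCC in that of Id2. Among the members that fell, CATTCC was found for Id4 and GGCGCC for Acvr1b, Id4 and Ltbp4. Of the 18 members with a promoter that were not called in the LATS1/2-KO group, 6 had GGCGCC, 3 CATTCC and 2 CAGACA. These are matches of letters in short windows, and binding was not measured.

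Of the TGF-beta ligands, Tgfb2 rose, Tgfb1 fell and Tgfb3 was not called against control. Tgfb2 (ENSMUSG00000039239, GRCm38 chr1:186622792-186705989, minus strand) stood at 863, 734 and 213 in control, 5209, 5278 and 7318 in the libraries labelled LATS1/2-KO and 7398, 6747 and 6552 in those labelled LATS1/2-Sox9-KO. All 6 deletion libraries lay above all control libraries, among which control 3 was lowest. Tgfb2 had log2 fold changes of 3.30 ± 0.42 (adjusted p = 0.000115) and 3.51 ± 0.42 (adjusted p = 6.83e-05). Tgfb1 (ENSMUSG00000002603, GRCm38 chr7:25687002-25705077, plus strand) stood at 2590.0, 2661 and 3337 in control, 1158, 543 and 1009 in the libraries labelled LATS1/2-KO and 1339, 862 and 980.1 in those labelled LATS1/2-Sox9-KO, again without overlap but in the opposite direction. Tgfb1 had log2 fold changes of -1.66 ± 0.27 (adjusted p = 0.000578) and -1.43 ± 0.27 (adjusted p = 0.00124). Tgfb3 stood at 6673, 8519.7 and 5347 in control, 7305, 8548 and 10308 in the libraries labelled LATS1/2-KO and 5016, 5667 and 5502 in those labelled LATS1/2-Sox9-KO, and both deletion groups overlapped with control. Tgfb3 had log2 fold changes of 0.35 ± 0.18 (adjusted p = 0.12) and -0.34 ± 0.18 (adjusted p = 0.122). Per kilobase of exon, Tgfb2 was 3.75% ± 2.03 (SD, n = 3) of the summed level of the 3 ligands in control, 27.0% ± 1.19 in the LATS1/2-KO group and 39.7% ± 2.15 in the LATS1/2-Sox9-KO group. The share of Tgfb1 went from 21.7% ± 6.49 to 4.82% ± 2.00 and 7.01% ± 1.59. Tgfb3 kept the greatest share of the pool in each group, at 74.5% ± 5.02, 68.2% ± 2.85 and 53.2% ± 3.68.

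Among activin and inhibin subunits, Inhba rose and Inhbb and Inha were lower. Inhba (ENSMUSG00000041324, GRCm38 chr13:16011851-16031621, plus strand) encodes the beta A subunit, whose homodimer is activin A. It stood at 257, 115 and 119 in control, 14732, 8189.6 and 10180.0 in the libraries labelled LATS1/2-KO and 9812, 14362 and 16309 in those labelled LATS1/2-Sox9-KO. The lowest deletion library stood at 8189.6 and the highest control library at 257. Inhba had log2 fold changes of 6.07 ± 0.40 (adjusted p = 3.33e-06) and 6.36 ± 0.41 (adjusted p = 1.84e-06). Inhbb, the beta B subunit of activin B, stood at 10362, 10112 and 9761 in control, 4814, 3569.5 and 5487 in the libraries labelled LATS1/2-KO and 8414, 3505 and 3452 in those labelled LATS1/2-Sox9-KO. All deletion libraries lay below the controls, with LATS1/2-Sox9-KO 1 the closest to them. Inhbb had log2 fold changes of -1.12 ± 0.32 (adjusted p = 0.0124) and -0.98 ± 0.32 (adjusted p = 0.0229), so that it was called in the LATS1/2-KO group, a call that was lost without LATS1/2-KO 2 (log2 fold change -0.98) and with a correction for GC content (-0.60, adjusted p = 0.0789). In the LATS1/2-Sox9-KO group it lay just short of the fold threshold and was called without LATS1/2-Sox9-KO 1 (-1.51, adjusted p = 9.51e-05), as well as in 4 other alternative fits, among them DESeq2 and RLE factors. Inha, the alpha subunit that turns activins into inhibins, stood at 284, 257 and 200.4 in control, 129, 98.3 and 189.7 in the libraries labelled LATS1/2-KO and 107, 119.6 and 88.4 in those labelled LATS1/2-Sox9-KO and was called lower in the LATS1/2-Sox9-KO group. Inha had log2 fold changes of -0.83 ± 0.29 (adjusted p = 0.033) and -1.24 ± 0.29 (adjusted p = 0.00463), and the call was lost with a correction for GC content (log2 fold change -0.74), while without LATS1/2-KO 3 Inha was also called lower in the LATS1/2-KO group (-1.11). The share of Inhba in the summed level per kilobase of the 3 subunits was 0.991% ± 0.451 (SD, n = 3) in control, 59.0% ± 6.26 in the LATS1/2-KO group and 62.9% ± 17.5 in the LATS1/2-Sox9-KO group, where LATS1/2-Sox9-KO 1 was lowest at 42.8%. Inhbb made up 92.5% ± 1.21 of the control pool and 37.8% ± 5.39 and 35.0% ± 17.5 in the deletion groups. Inhbc and Inhbe had 1 count each over all 9 libraries.

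**Figure D2:**
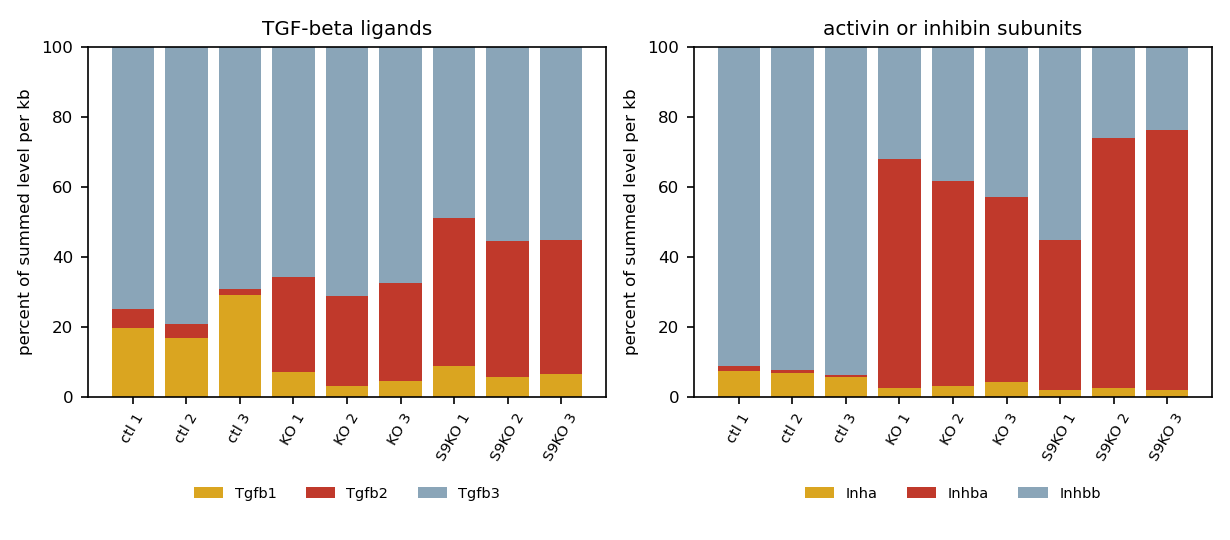
Share of each gene in the summed level per kilobase of exon of its family, in percent, with a stacked bar for each library (ctl, control; KO, LATS1/2-KO; S9KO, LATS1/2-Sox9-KO). Tgfb2 takes 1.61% to 5.65% of the TGF-beta ligands in the control libraries and 25.7% to 42.2% in the deletion libraries, and Inhba goes from 0.698% to 1.51% of the subunits to 42.8% to 74.6%.

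BMP ligands moved in both directions. Bmp4 (ENSMUSG00000021835, GRCm38 chr14:46383520-46390669, minus strand), a ligand of early patterning and mesenchymal signalling, stood at 80.0, 142 and 372 in control, 3015, 1688 and 1901 in the libraries labelled LATS1/2-KO and 6544, 7424 and 5963 in those labelled LATS1/2-Sox9-KO. The 3 groups did not overlap, and control 3 was the highest control library. Bmp4 had log2 fold changes of 3.48 ± 0.48 (adjusted p = 0.000191) and 5.07 ± 0.51 (adjusted p = 2.22e-05). Without control 3 the log2 fold changes were 4.29 and 5.91. Bmp8b, known for its part in the germ line and in brown fat, stood at 27.8, 52.2 and 72.2 in control, 142, 229 and 273 in the libraries labelled LATS1/2-KO and 1550.2, 1175 and 962 in those labelled LATS1/2-Sox9-KO, with no overlap between any of the groups. Bmp8b had log2 fold changes of 2.08 ± 0.37 (adjusted p = 0.000868) and 4.60 ± 0.39 (adjusted p = 8.31e-06). Its exons share 133 bases with those of Ppie on the other strand, which had 1795 to 2771 counts per library, and reads of the pair cannot be told apart there. Bmp3 (ENSMUSG00000029335, GRCm38 chr5:98854415-98884396, plus strand), a BMP that counteracts other BMPs, moved the other way. It stood at 1435, 1959.5 and 3292 in control, 681, 168 and 363 in the libraries labelled LATS1/2-KO and 80.8, 26.9 and 71.0 in those labelled LATS1/2-Sox9-KO, with all deletion libraries below control. Bmp3 had log2 fold changes of -2.47 ± 0.53 (adjusted p = 0.00298) and -5.22 ± 0.62 (adjusted p = 6.05e-05), the first of which was -3.07 without LATS1/2-KO 1. Bmp15, an oocyte ligand, was called higher in both comparisons at low counts, from 0, 1 and 0 in the control libraries to 36, 4 and 12 and to 62, 67 and 57. Bmp2, Bmp7 and Bmp8a were not called in any comparison, with log2 fold changes between -1.28 and -0.27 against control.

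Of the 10 Gdf genes, 4 were tested, all at modest levels. Gdf9, an oocyte ligand, fell in both comparisons from 51.0, 57.8 and 158 normalized counts in control and had log2 fold changes of -2.16 ± 0.51 (adjusted p = 0.00471) and -1.77 ± 0.50 (adjusted p = 0.0115). Gdf5, a ligand of joint formation, rose in the LATS1/2-Sox9-KO group (log2 fold change 1.96 ± 0.53, adjusted p = 0.00914), to 96.5, 72.7 and 32.8 from 27.8, 11.3 and 12.4. Gdf15, a stress-induced ligand, was called higher in that group too, although LATS1/2-Sox9-KO 3 lay just under control 3 (log2 fold change 1.32 ± 0.49, adjusted p = 0.0422). Gdf11 was not called (-1.20 and -1.63).

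Of the 4 latent TGF-beta binding proteins, Ltbp1, Ltbp3 and Ltbp4 fell and Ltbp2 was not called. Ltbp1 (ENSMUSG00000001870, GRCm38 chr17:75005568-75392512, plus strand) had the highest mean normalized count of all members over the 9 libraries pooled and in control, but not in the deletion groups. It stood at 25607, 45833 and 61966 in control, 12979.9, 5789 and 8696 in the libraries labelled LATS1/2-KO and 8260.0, 9545 and 9991 in those labelled LATS1/2-Sox9-KO. The controls were widely spread, and every deletion library still lay below them. Ltbp1 had log2 fold changes of -2.28 ± 0.34 (adjusted p = 0.000337) and -2.26 ± 0.34 (adjusted p = 0.000309). Ltbp3 (ENSMUSG00000024940, GRCm38 chr19:5740904-5758532, plus strand) stood at 38361, 34464 and 32979 in control, 9674, 10255 and 13485 in the libraries labelled LATS1/2-KO and 11026, 7594 and 6797 in those labelled LATS1/2-Sox9-KO, a fall of similar size with a narrower spread. Ltbp3 had log2 fold changes of -1.66 ± 0.19 (adjusted p = 6.98e-05) and -2.06 ± 0.20 (adjusted p = 1.61e-05). Ltbp4 was much less abundant, at 261, 158 and 218 in control, 70.2, 41.5 and 88.5 in the libraries labelled LATS1/2-KO and 37.1, 65.8 and 82.0 in those labelled LATS1/2-Sox9-KO, and fell as well. Ltbp4 had log2 fold changes of -1.67 ± 0.39 (adjusted p = 0.00471) and -1.78 ± 0.39 (adjusted p = 0.00309). Ltbp2, which does not bind latent TGF-beta, stood at 5379, 4425 and 3416 in control, 6359, 3615 and 4867 in the libraries labelled LATS1/2-KO and 4126, 3502 and 3371 in those labelled LATS1/2-Sox9-KO and was not called. Ltbp2 had log2 fold changes of 0.17 ± 0.22 (adjusted p = 0.54) and -0.27 ± 0.22 (adjusted p = 0.318).

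Other genes that hold or release latent TGF-beta rose more often than they fell. Of 17 such genes, all tested, 8 rose and 2 fell in the LATS1/2-KO group (median log2 fold change 0.92) and 7 rose and 1 fell in the LATS1/2-Sox9-KO group (median 0.57), with 17.1% and 17.8% of all genes called higher and 17.5% and 19.6% called lower in these comparisons. Itgb6, the beta subunit of the integrin alpha v beta 6 that frees TGF-beta in epithelia, stood at 705, 875 and 1404 in control, 14220.5, 9493 and 9798 in the libraries labelled LATS1/2-KO and 22049.7, 17655 and 15885 in those labelled LATS1/2-Sox9-KO, without overlap. Itgb6 had log2 fold changes of 3.49 ± 0.28 (adjusted p = 8.04e-06) and 4.22 ± 0.29 (adjusted p = 2.57e-06). Fn1, the fibronectin that anchors latent complexes, stood at 274, 60.1 and 175 in control, 36146, 9159 and 12562 in the libraries labelled LATS1/2-KO and 30299.5, 32896 and 41373 in those labelled LATS1/2-Sox9-KO, far above control in each deletion library. Fn1 had log2 fold changes of 6.83 ± 0.70 (adjusted p = 3.08e-05) and 7.68 ± 0.72 (adjusted p = 1.42e-05), the first of which was 6.01 without LATS1/2-KO 1. Adamts1, a matrix protease, rose by a log2 fold change of 3.33 and 3.93, and Itgb1, the common beta integrin, by 2.00 and 1.77. Mmp9, a gelatinase, rose in the LATS1/2-Sox9-KO group (log2 fold change 4.68 ± 1.22, adjusted p = 0.00771), but LATS1/2-Sox9-KO 1 carried most of it, with 615, 20.9 and 41.9 normalized counts in the 3 libraries, and without that library the log2 fold change was 1.86. Itgb5, the beta subunit of another integrin, fell in both comparisons and Lrrc32 in the LATS1/2-KO group, and both are named here after their values were seen.

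The secreted antagonists Nog and Fst had the largest increases of any member in the LATS1/2-KO group. Fst (ENSMUSG00000021765, GRCm38 chr13:114452290-114458951, minus strand) encodes follistatin, which binds activin and some BMPs. It stood at 108, 66.9 and 48.5 in control, 5374, 6635 and 7910.0 in the libraries labelled LATS1/2-KO and 11731, 21583 and 15748 in those labelled LATS1/2-Sox9-KO. Control libraries held at most 108 normalized counts and the lowest deletion library 5374. Fst had log2 fold changes of 6.47 ± 0.35 (adjusted p = 1.46e-06) and 7.77 ± 0.37 (adjusted p = 4.92e-07). Nog (ENSMUSG00000048616, GRCm38 chr11:89300638-89302332, minus strand), the BMP antagonist noggin, had no count in controls 1 and 3 and stood at 0, 10.2 and 0 in control, 536, 258 and 588 in the libraries labelled LATS1/2-KO and 325, 153 and 158 in those labelled LATS1/2-Sox9-KO. Nog had log2 fold changes of 6.99 ± 0.88 (adjusted p = 0.000111) and 5.87 ± 0.87 (adjusted p = 0.000257). Every deletion library stood above control. Since control 2 carried all of its control counts, the size of these fold changes rests on that library. Fstl3, a follistatin-like binder of activin, stood at 684, 573 and 519 in control, 2134, 1413 and 2018 in the libraries labelled LATS1/2-KO and 2578, 2387 and 2171 in those labelled LATS1/2-Sox9-KO, without overlap. Fstl3 had log2 fold changes of 1.65 ± 0.18 (adjusted p = 4.46e-05) and 2.01 ± 0.18 (adjusted p = 1.11e-05). Its exons share 1157 bases with those of Prss57, which had 0 to 25 counts per library. Chrd, the antagonist chordin, fell in the LATS1/2-Sox9-KO group (log2 fold change -1.70 ± 0.44, adjusted p = 0.00732), to 27.8, 9.96 and 27.3 from 63.8, 82.8 and 66.0 normalized counts. Grem1 had at most 5 counts in any library.

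**Figure D3:**
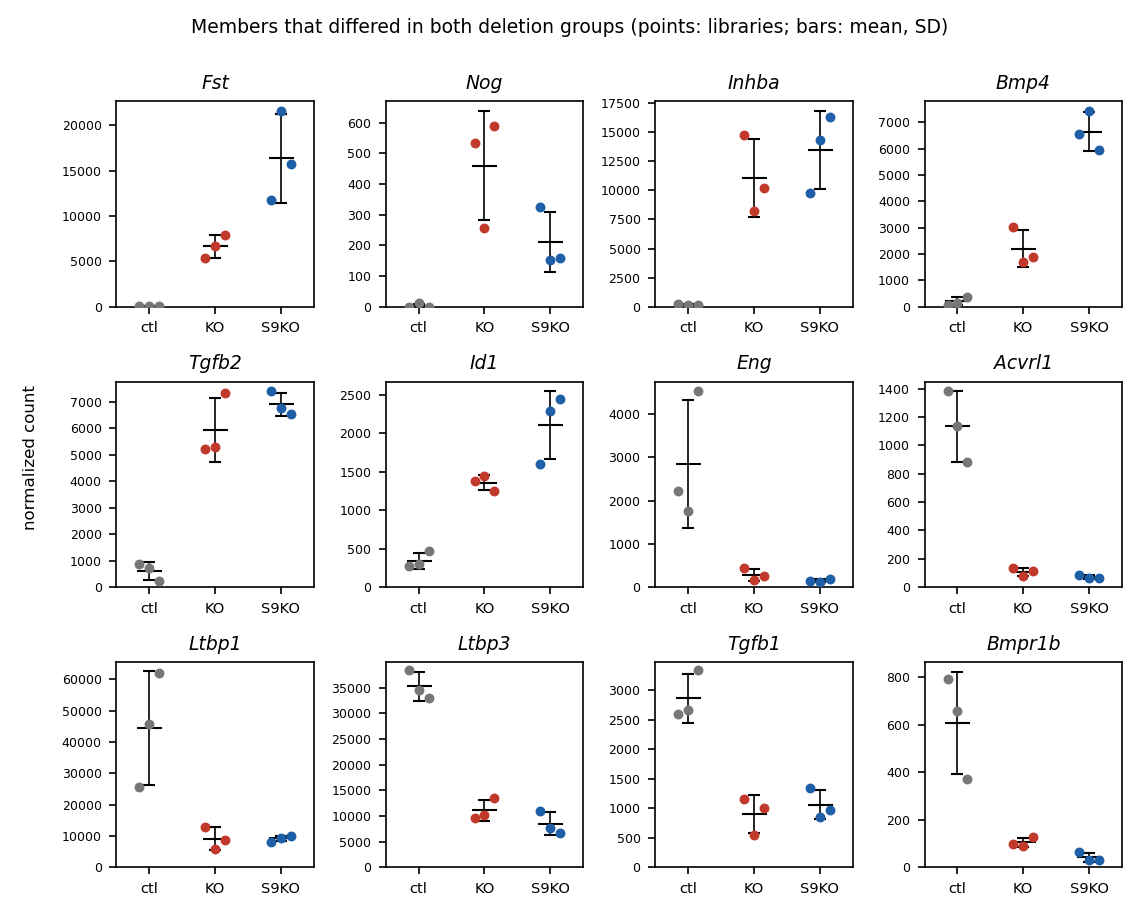
Normalized counts of 12 members in each library (points), with the mean and SD of each group (ctl, control; KO, LATS1/2-KO; S9KO, LATS1/2-Sox9-KO; n = 3 each; linear axes from 0). Fst, Nog, Inhba, Bmp4, Tgfb2 and Id1 lie above control in all 6 deletion libraries, and Eng, Acvrl1, Ltbp1, Ltbp3, Tgfb1 and Bmpr1b lie below it.

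Further secreted or membrane modulators from a list of 30 genes, of which 29 were found and 21 tested, were split in direction. In the LATS1/2-KO group 7 rose and 8 fell (median log2 fold change -0.43), and in the LATS1/2-Sox9-KO group 6 rose and 8 fell (median -0.49), with backgrounds of 17.1% higher and 17.5% lower, and 17.8% and 19.6%. Fstl1, a secreted follistatin-like glycoprotein, stood at 58.0, 112 and 69.7 in control, 1349, 1274 and 1059 in the libraries labelled LATS1/2-KO and 979, 796 and 879.9 in those labelled LATS1/2-Sox9-KO. Fstl1 had log2 fold changes of 3.94 ± 0.26 (adjusted p = 3.13e-06) and 3.46 ± 0.25 (adjusted p = 3.41e-06). The BMP antagonists Nbl1 and Sostdc1 rose as well. Nbl1 had log2 fold changes of 3.00 ± 0.54 (adjusted p = 0.000985) and 3.55 ± 0.55 (adjusted p = 0.000345), or 4.11 and 4.68 without control 3, its highest control library. Sostdc1 had log2 fold changes of 2.89 ± 0.42 (adjusted p = 0.000281) and 2.73 ± 0.42 (adjusted p = 0.000341). Chrdl2, a chordin-like antagonist, fell from 71.9, 152 and 248 normalized counts in control to at most 22.8 in any deletion library. Chrdl2 had log2 fold changes of -3.51 ± 0.76 (adjusted p = 0.00298) and -6.52 ± 0.96 (adjusted p = 0.000244), which were -4.10 without LATS1/2-KO 3 and -8.05 without LATS1/2-Sox9-KO 2. Dcn, the TGF-beta binding proteoglycan decorin, stood at 1626, 3291 and 8162 in control, 1319.8, 289 and 1161 in the libraries labelled LATS1/2-KO and 27.8, 119.6 and 325 in those labelled LATS1/2-Sox9-KO. Dcn had log2 fold changes of -2.24 ± 0.84 (adjusted p = 0.0429) and -4.79 ± 0.95 (adjusted p = 0.0016), the second of which was -3.95 without control 3 and -5.88 without LATS1/2-Sox9-KO 3. Dcn is also a fibroblast marker. The summed level of 10 fibroblast markers was 7.25, 13.1 and 29.3 per kilobase on the same scale in control, 25.3, 7.46 and 9.56 in the LATS1/2-KO group and 7.32, 9.98 and 18.2 in the LATS1/2-Sox9-KO group, with none at 0, Dcn the most abundant in control, and 5 of 10 called higher and 1 lower in the LATS1/2-KO group. In the LATS1/2-Sox9-KO group 4 of these markers were called higher and 2 lower (median log2 fold change 1.51). The part of fibroblast RNA in the values of Dcn was not tested.

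Several receptors of the TGF-beta and BMP branches fell, while the main TGF-beta receptor pair and Bmpr1a were not called. Acvrl1 (ENSMUSG00000000530, GRCm38 chr15:101128522-101145336, plus strand), the type I receptor ALK1 known from endothelial cells, stood at 1383, 1137 and 885 in control, 134, 76.3 and 111 in the libraries labelled LATS1/2-KO and 83.5, 65.8 and 61.9 in those labelled LATS1/2-Sox9-KO. Acvrl1 had log2 fold changes of -3.40 ± 0.27 (adjusted p = 8.1e-06) and -4.01 ± 0.28 (adjusted p = 2.9e-06). Its co-receptor Eng (ENSMUSG00000026814, GRCm38 chr2:32646595-32682669, plus strand), endoglin, stood at 2225, 1766 and 4533 in control, 429, 155 and 253 in the libraries labelled LATS1/2-KO and 143, 109 and 179 in those labelled LATS1/2-Sox9-KO. Eng had log2 fold changes of -3.35 ± 0.45 (adjusted p = 0.000161) and -4.31 ± 0.47 (adjusted p = 3.77e-05). For both genes the deletion libraries lay below all control libraries. The exons of Eng share 61 bases with those of Fpgs on the other strand, which had 1189 to 1909 counts per library. As Acvrl1 and Eng are best known from endothelium, endothelial markers were set beside them. The summed level of 10 such markers was 11.1, 8.65 and 11.9 per kilobase on the same scale in control, 6.60, 4.94 and 4.95 in the LATS1/2-KO group and 1.77, 3.95 and 4.75 in the LATS1/2-Sox9-KO group, with none at 0. Vwf was the most abundant marker in control and Plvap in the deletion groups, and Vwf alone stood at 5566, 4609.7 and 5222 in control, 264, 71.2 and 150.5 in the libraries labelled LATS1/2-KO and 62.2, 116 and 181 in those labelled LATS1/2-Sox9-KO. The junction genes Pecam1 (log2 fold change -0.26 ± 0.50, adjusted p = 0.682) and Cdh5 (log2 fold change 0.84 ± 0.48, adjusted p = 0.158) were not called in the LATS1/2-KO group, in which Kdr rose and Vwf fell. Kdr rose and Vwf, Tek and Plvap fell in the LATS1/2-Sox9-KO group, and the part of endothelial RNA in the values of Eng and Acvrl1 was not tested.

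Of the other type I receptors, Bmpr1b, a BMP receptor, stood at 793, 658 and 373 in control, 100.3, 90.7 and 128 in the libraries labelled LATS1/2-KO and 65.0, 31.9 and 30.1 in those labelled LATS1/2-Sox9-KO, below control throughout. Bmpr1b had log2 fold changes of -2.52 ± 0.37 (adjusted p = 0.000301) and -3.84 ± 0.40 (adjusted p = 2.72e-05). Acvr1b, the activin receptor ALK4, stood at 2987, 2626 and 2865 in control, 797, 860.0 and 1098 in the libraries labelled LATS1/2-KO and 1053, 793 and 739.6 in those labelled LATS1/2-Sox9-KO and also fell without overlap. Acvr1b had log2 fold changes of -1.62 ± 0.17 (adjusted p = 3.98e-05) and -1.71 ± 0.17 (adjusted p = 2.26e-05). Bmpr1a, at 11258, 9959.9 and 12000.2 in control, 12172, 12328 and 10750.1 in the libraries labelled LATS1/2-KO and 9619.9, 10182 and 10211 in those labelled LATS1/2-Sox9-KO, and the TGF-beta receptor gene Tgfbr1, at 2864, 3083 and 1893 in control, 3486, 3829.6 and 3506 in the libraries labelled LATS1/2-KO and 2831, 2908 and 2979 in those labelled LATS1/2-Sox9-KO, were not called in either control comparison. Their log2 fold changes were 0.09 ± 0.10 (adjusted p = 0.51) and -0.15 ± 0.10 (adjusted p = 0.252) for Bmpr1a and 0.46 ± 0.16 (adjusted p = 0.0342) and 0.15 ± 0.16 (adjusted p = 0.449) for Tgfbr1. Acvr1 was not called (-0.52 and -0.66), and Acvr1c was not called at counts of at most 42.

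Among type II receptors, Acvr2a, which binds activins and BMPs, was called higher. It stood at 979, 993 and 1111 in control, 1546, 2731 and 2732 in the libraries labelled LATS1/2-KO and 1592, 1697 and 1794 in those labelled LATS1/2-Sox9-KO, with every deletion library above control. Acvr2a had log2 fold changes of 1.18 ± 0.20 (adjusted p = 0.000726) and 0.72 ± 0.20 (adjusted p = 0.011) and was called in the LATS1/2-KO group, a call lost with a correction for GC content (log2 fold change 0.76). Its exons share 446 bases with those of Orc4 on the other strand, which had 1507 to 4103 counts per library beside 844 to 3223 of Acvr2a, and reads of the pair cannot be told apart there. Tgfbr2, the type II receptor of TGF-beta, stood at 13188, 13419 and 12642 in control, 13295, 11080.5 and 17841 in the libraries labelled LATS1/2-KO and 21273, 16451 and 15564 in those labelled LATS1/2-Sox9-KO. Tgfbr2 had log2 fold changes of 0.11 ± 0.18 (adjusted p = 0.639) and 0.44 ± 0.18 (adjusted p = 0.0545). Bmpr2 stood at 6907, 5782 and 6744 in control, 5329.6, 4635 and 5807 in the libraries labelled LATS1/2-KO and 4434, 3978 and 3836 in those labelled LATS1/2-Sox9-KO, lowest in the LATS1/2-Sox9-KO group. Bmpr2 had log2 fold changes of -0.30 ± 0.12 (adjusted p = 0.0546) and -0.67 ± 0.12 (adjusted p = 0.000912), both under the fold threshold, which the second passed with a correction for GC content (-1.04). Those of Acvr2b were under it too (-0.89 and -0.81). The co-receptor Tgfbr3 (ENSMUSG00000029287, GRCm38 chr5:107106570-107289629, minus strand), betaglycan, which presents Tgfb2 to its receptors and supports inhibin binding, stood at 709, 577 and 686 in control, 225, 277 and 264 in the libraries labelled LATS1/2-KO and 141, 101 and 95.6 in those labelled LATS1/2-Sox9-KO. Its groups were fully separated, and it fell in both comparisons. Tgfbr3 had log2 fold changes of -1.36 ± 0.21 (adjusted p = 0.000366) and -2.55 ± 0.22 (adjusted p = 8.36e-06).

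Of the 7 Smad genes tested, 1 was called in a control comparison. Smad3 (ENSMUSG00000032402, GRCm38 chr9:63646767-63757994, minus strand), an effector of TGF-beta and activin, stood at 7681, 8766 and 7229.8 in control, 4335, 2827 and 4186 in the libraries labelled LATS1/2-KO and 8903, 6389 and 5710.1 in those labelled LATS1/2-Sox9-KO and fell in the LATS1/2-KO group. Smad3 had log2 fold changes of -1.06 ± 0.20 (adjusted p = 0.00139) and -0.17 ± 0.20 (adjusted p = 0.482). That call sat at the fold threshold, since the log2 fold change was -0.98 without control 2, -0.90 without LATS1/2-KO 2 and -0.83 with a correction for GC content. Smad4, the common partner, stood at 4689, 4991 and 5459 in control, 7404, 8811 and 8791 in the libraries labelled LATS1/2-KO and 7068, 7458 and 7106 in those labelled LATS1/2-Sox9-KO, higher in all 6 deletion libraries but under the fold threshold. Smad4 had log2 fold changes of 0.72 ± 0.11 (adjusted p = 0.000269) and 0.51 ± 0.11 (adjusted p = 0.00195). Smad5, a BMP effector, stood at 6042, 6561 and 6264 in control, 6356, 7104 and 6692 in the libraries labelled LATS1/2-KO and 5173, 5053 and 5471 in those labelled LATS1/2-Sox9-KO. Smad5 had log2 fold changes of 0.10 ± 0.09 (adjusted p = 0.401) and -0.27 ± 0.09 (adjusted p = 0.0291). Smad1, Smad2 and the inhibitory Smad6 and Smad7 were not called, with log2 fold changes between -0.72 and 0.42 against control, and Smad9 had at most 21 counts. Skil, the SnoN corepressor of Smads, stood at 29786, 29078 and 19887 in control, 25385, 17406 and 18232 in the libraries labelled LATS1/2-KO and 18362, 14584 and 14389.6 in those labelled LATS1/2-Sox9-KO. Skil had log2 fold changes of -0.37 ± 0.20 (adjusted p = 0.136) and -0.73 ± 0.20 (adjusted p = 0.0088) and was not called, although with a correction for GC content it was called lower in the LATS1/2-Sox9-KO group (-1.11). Not called either were the pseudoreceptor gene Bambi (log2 fold changes -0.27 and -0.63) and the members matched by name only, Bmp1 (0.59 and 0.24) and Bmp2k (0.84 and 0.54).

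Most intracellular regulators of the pathway passed the adjusted p without passing the fold threshold. Of 26 such genes 25 were tested, and 1 rose and 3 fell in the LATS1/2-KO group (median log2 fold change 0.33), while 2 rose and 3 fell in the LATS1/2-Sox9-KO group (median 0.32), against backgrounds of 17.1% higher and 17.5% lower, and 17.8% and 19.6%. By the adjusted p alone, 13 were higher and 6 lower in the first comparison (28.7% and 27.1% of all genes) and 12 and 7 in the second (29.3% and 28.7%). Besides the genes described next, the deubiquitinase gene Usp15 was called higher in the latter group, and is named after its value was seen. Wwp1, a ubiquitin ligase that acts on the receptors and Smads, stood at 910.5, 863 and 979 in control, 4025, 5707 and 4369 in the libraries labelled LATS1/2-KO and 3829, 5846 and 5141 in those labelled LATS1/2-Sox9-KO. Wwp1 had log2 fold changes of 2.36 ± 0.18 (adjusted p = 7.3e-06) and 2.43 ± 0.19 (adjusted p = 4.42e-06). Every deletion library held several times the control level. Nedd4l, a related ligase, fell, with log2 fold changes of -1.39 ± 0.10 (adjusted p = 5.24e-06) and -1.47 ± 0.10 (adjusted p = 2.76e-06). Hipk2, a kinase gene, fell as well and had log2 fold changes of -1.65 ± 0.17 (adjusted p = 2.84e-05) and -1.31 ± 0.16 (adjusted p = 8.84e-05). Tgif2, a Smad corepressor, was called lower with log2 fold changes of -1.05 ± 0.31 (adjusted p = 0.0151) and -1.79 ± 0.32 (adjusted p = 0.00079), but the first call was lost in 4 of the 6 fits without 1 library and with a correction for GC content.

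The Id genes, inhibitors of basic helix-loop-helix factors, differed from one another. Id1 (ENSMUSG00000042745, GRCm38 chr2:152736251-152737410, plus strand) stood at 269, 301 and 462 in control, 1381, 1437 and 1245 in the libraries labelled LATS1/2-KO and 1605, 2285 and 2439 in those labelled LATS1/2-Sox9-KO, without overlap between control and deletion libraries. Id1 had log2 fold changes of 1.98 ± 0.23 (adjusted p = 6.69e-05) and 2.62 ± 0.23 (adjusted p = 1.07e-05). Id2 (ENSMUSG00000020644, GRCm38 chr12:25093799-25097140, minus strand) stood at 1419.7, 1412 and 1445 in control, 2728, 4126 and 3068 in the libraries labelled LATS1/2-KO and 9849, 13288 and 10226 in those labelled LATS1/2-Sox9-KO, and all 3 groups were separate. Id2 had log2 fold changes of 1.21 ± 0.17 (adjusted p = 0.000201) and 2.96 ± 0.18 (adjusted p = 1.36e-06). With a correction for GC content its value in the LATS1/2-KO group was 0.92, under the fold threshold. Id3 (ENSMUSG00000007872, GRCm38 chr4:136143497-136145755, plus strand) stood at 4100.1, 4019 and 3779 in control, 4115, 3261 and 3131 in the libraries labelled LATS1/2-KO and 8320.3, 7329.8 and 6677 in those labelled LATS1/2-Sox9-KO, with the LATS1/2-KO libraries on either side of the control range and the LATS1/2-Sox9-KO libraries above both. Id3 had log2 fold changes of -0.18 ± 0.13 (adjusted p = 0.267) and 0.91 ± 0.13 (adjusted p = 0.000215), the second of which was 1.22 and called with a correction for GC content. Id4 was the least abundant, at 195, 151 and 175 in control, 63.2, 60.2 and 73.0 in the libraries labelled LATS1/2-KO and 81.7, 159 and 84.7 in those labelled LATS1/2-Sox9-KO, and fell in the LATS1/2-KO group. Id4 had log2 fold changes of -1.41 ± 0.32 (adjusted p = 0.00373) and -0.68 ± 0.31 (adjusted p = 0.0863), the second of which was called with a correction for GC content (-1.02) and without LATS1/2-Sox9-KO 2 (-1.04).

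Lists of genes known to respond to each branch, also chosen with earlier results of these data known, were read beside the members. Of 25 genes of a TGF-beta response list, all tested, 18 rose and 1 fell in the LATS1/2-KO group (median log2 fold change 2.31), and 17 rose and 1 fell in the LATS1/2-Sox9-KO group (median 2.56), where 17.1% and 17.8% of all genes rose and 17.5% and 19.6% fell. The gene that fell was Junb in both, named after its value was seen. Lox, the collagen cross-linking enzyme lysyl oxidase, stood at 3.48, 1.13 and 8.71 in control, 584, 873 and 1243 in the libraries labelled LATS1/2-KO and 3884, 6249.7 and 5287 in those labelled LATS1/2-Sox9-KO, with the 3 groups apart. Lox had log2 fold changes of 7.66 ± 0.49 (adjusted p = 3e-06) and 10.17 ± 0.51 (adjusted p = 5.91e-07), or 8.53 and 11.06 without control 3. Ccn2, which is also a textbook YAP and TEAD target, stood at 1399, 1047 and 966 in control, 78001, 215953 and 144855 in the libraries labelled LATS1/2-KO and 103832, 89847 and 64233 in those labelled LATS1/2-Sox9-KO. Ccn2 had log2 fold changes of 7.01 ± 0.42 (adjusted p = 2.22e-06) and 6.24 ± 0.41 (adjusted p = 1.96e-06). The matrix gene Postn stood at 259.8, 238 and 254 in control, 11099, 16150.5 and 6547 in the libraries labelled LATS1/2-KO and 2388, 5830.2 and 5315 in those labelled LATS1/2-Sox9-KO. Postn had log2 fold changes of 5.49 ± 0.43 (adjusted p = 7.3e-06) and 4.17 ± 0.41 (adjusted p = 1.82e-05). Hmga2, a chromatin protein gene, was near 0 in control and reached 308, 355 and 210.4 normalized counts in the LATS1/2-Sox9-KO group (log2 fold change 6.17 ± 1.07, adjusted p = 0.000724), a fold change that became 11.21 without control 1, which held all control counts, and 5.59 without control 2. Fn1, Itgb6 and Thbs1 are in this list and in that of latent TGF-beta activation, and Acta2 and Tagln are also basal markers. Markers of other cell types also differed between libraries. Of the marker sets given next, only the pericyte sums kept every deletion library apart from control. The summed level of 6 adipocyte markers was 1.54, 1.29 and 2.98 per kilobase on the same scale in control, 2.13, 19.95 and 9.81 in the LATS1/2-KO group and 0.474, 6.50 and 5.45 in the LATS1/2-Sox9-KO group, with Fabp4 the most abundant in all libraries but control 3. Of these 4 rose and 1 fell in the LATS1/2-KO group, and 3 rose and 1 fell in the LATS1/2-Sox9-KO group. Adipoq, Cidec and Lep were at 0 in control 1, Adipoq and Lep in control 2, and Cidec and Lep in control 3. Plin1 and Cidec were at 0 in LATS1/2-KO 1 and in LATS1/2-Sox9-KO 1. The summed level of 7 pericyte markers was 46.6 to 64.9 in control, 21.3 to 40.6 in the LATS1/2-KO group and 14.6 to 18.5 in the LATS1/2-Sox9-KO group, with Notch3 the most abundant in control and Kcnj8 at 0 in 4 libraries. Of the 6 tested, 1 rose and 3 fell in the LATS1/2-KO group, and 0 rose and 3 fell in the LATS1/2-Sox9-KO group. The summed level of 10 immune markers was 13.3, 9.63 and 8.66 in control, 28.6, 17.4 and 10.4 in the LATS1/2-KO group and 18.7, 18.5 and 23.5 in the LATS1/2-Sox9-KO group. Of the 7 tested, Csf1r rose in both groups and Adgre1 in the LATS1/2-Sox9-KO group, while Ptprc was not called and the T cell gene Cd3e was at 0 in all 9 libraries. Lyz2, Cd68 or Csf1r was the most abundant in each library. The part of basal, fibroblast, adipocyte, pericyte or immune RNA in the list was not tested.

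In the BMP response list more genes fell than rose. Of its 15 genes 10 were tested, and 0 rose and 7 fell in the LATS1/2-KO group (median log2 fold change -2.12), while 1 rose and 7 fell in the LATS1/2-Sox9-KO group (median -2.31), beside the same shares of all genes, 17.5% and 19.6% lower. The gene that rose was Dlx3, named after its value was seen. At an unadjusted p under 0.05, 0 were higher and 8 lower in the LATS1/2-KO group by the same edgeR fit, and DESeq2 called 0 higher and 7 lower. Alpl, alkaline phosphatase, stood at 8821, 7210.0 and 5055 in control, 637, 435 and 518 in the libraries labelled LATS1/2-KO and 388, 171 and 158 in those labelled LATS1/2-Sox9-KO. Alpl had log2 fold changes of -3.73 ± 0.36 (adjusted p = 2.38e-05) and -4.87 ± 0.39 (adjusted p = 5.39e-06). Tbx3, a T-box factor of mammary development, stood at 7359, 7073 and 7237 in control, 1131, 910.0 and 1418 in the libraries labelled LATS1/2-KO and 1100.0, 806 and 767 in those labelled LATS1/2-Sox9-KO. Tbx3 had log2 fold changes of -2.65 ± 0.19 (adjusted p = 4.86e-06) and -3.02 ± 0.19 (adjusted p = 1.84e-06). Neither gene's deletion libraries came near its control range. Dlx5, a homeobox gene, fell and had log2 fold changes of -2.60 ± 0.43 (adjusted p = 0.000632) and -2.46 ± 0.43 (adjusted p = 0.000769). Hey1, a Notch and BMP target, fell and had log2 fold changes of -2.45 ± 0.33 (adjusted p = 0.000159) and -4.01 ± 0.35 (adjusted p = 9.84e-06). Gata3, which is in this list and among the luminal markers, was 1 of the 7 that fell. The Id genes are members and were not counted in this list, and they did not share its direction. Of the 4, 2 rose and 1 fell in the LATS1/2-KO group (median log2 fold change 0.52). In the LATS1/2-Sox9-KO group 2 rose and 0 fell (median 1.76).

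**Figure D4:**
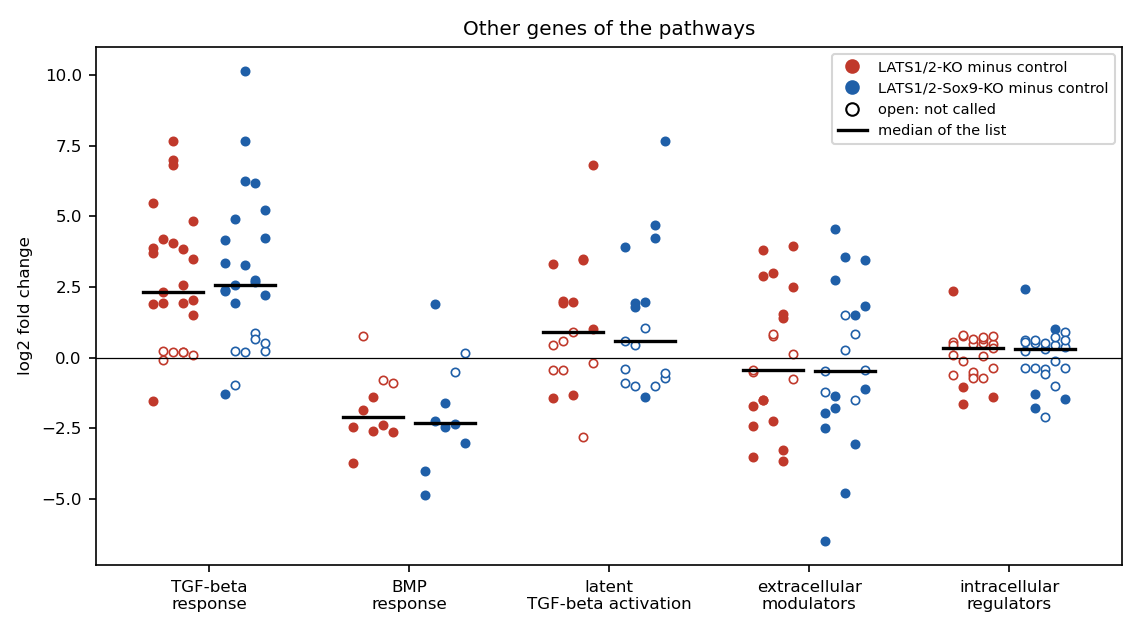
Log2 fold changes of the tested genes of 5 further pathway lists, for the LATS1/2-KO group minus control (red) and the LATS1/2-Sox9-KO group minus control (blue). Filled points were called and black lines are list medians, which stand at 2.31 and 2.56 for the TGF-beta response list and at -2.12 and -2.31 for the BMP response list. The Id genes are not in the BMP response list.

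The LATS1/2-Sox9-KO libraries were compared with the LATS1/2-KO libraries to see which members differed with the additional floxed Sox9. Gene-level counts of Sox9 itself, given above, overlapped between these groups. Of the 54 tested members 4 were called higher and 2 lower, against 1.55% and 2.16% of all genes tested (median log2 fold change -0.19 over members and -0.02 over all genes). By the adjusted p alone, at 0.05 or less, 5 were higher and 4 lower, against 3.13% and 3.33%. Id2 rose (log2 fold change 1.75 ± 0.17, adjusted p = 0.00147), as did Id3 (log2 fold change 1.09 ± 0.13, adjusted p = 0.00376) and Bmp8b (log2 fold change 2.52 ± 0.35, adjusted p = 0.00613), and the libraries of the groups did not overlap for any of these. All 3 kept an adjusted p of at most 0.05 in each of 15 alternative fits of the same null hypothesis of no change. Tested against a fold change of 2 by edgeR's glmTreat, none of the 54 members passed, with an adjusted p of 0.0516 for Id2, 0.0835 for Bmp8b and 1 for Id3. Fst was also called higher (log2 fold change 1.30 ± 0.27, adjusted p = 0.0246), with the adjusted p between 0.0536 and 0.0901 when LATS1/2-KO 2 or 3 or LATS1/2-Sox9-KO 2 or 3 was left out.

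Members lower with the additional floxed Sox9 were Bmp3 and Tgfbr3. Bmp3 fell (log2 fold change -2.75 ± 0.56, adjusted p = 0.0228, or -2.14 without LATS1/2-KO 1), and the call was lost without LATS1/2-KO 3, LATS1/2-Sox9-KO 2 or LATS1/2-Sox9-KO 3 (adjusted p from 0.0588 to 0.0840). Tgfbr3 fell (log2 fold change -1.18 ± 0.21, adjusted p = 0.0142), and the call was lost without LATS1/2-Sox9-KO 2 or 3 (adjusted p = 0.0751 and 0.0549). As a result, the count of members called lower was 1 without LATS1/2-KO 3 and 0 without LATS1/2-Sox9-KO 2 or LATS1/2-Sox9-KO 3. Smad3 (log2 fold change 0.89 ± 0.20, adjusted p = 0.0317), Tgfb3 (log2 fold change -0.69 ± 0.18, adjusted p = 0.0483) and Smad5 (log2 fold change -0.36 ± 0.09, adjusted p = 0.0462) passed the adjusted p without passing the fold threshold, and did so in 10, 9 and 6 of 15 alternative fits. Smad3 passed the fold threshold without LATS1/2-Sox9-KO 3 (1.04). Bmp4 had higher values in every LATS1/2-Sox9-KO library than in any LATS1/2-KO library, with an adjusted p over the threshold (log2 fold change 1.59 ± 0.43, adjusted p = 0.0591), and the same held for Bmp15, Fstl3, Gdf5, Id1 and Id4. In the opposite direction, every LATS1/2-Sox9-KO library lay below every LATS1/2-KO library for Bmpr1b (log2 fold change -1.32 ± 0.38, adjusted p = 0.0669), Bmpr1a, Bmpr2, Tgfbr1, Chrd and Bmp2k, also with an adjusted p over the threshold. With 3 libraries against 3, full separation cannot give an exact two-sided permutation p below 0.1. The share of all tested genes separated in this way is not given here, so both lists of separated members are descriptive only.

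**Figure D5:**
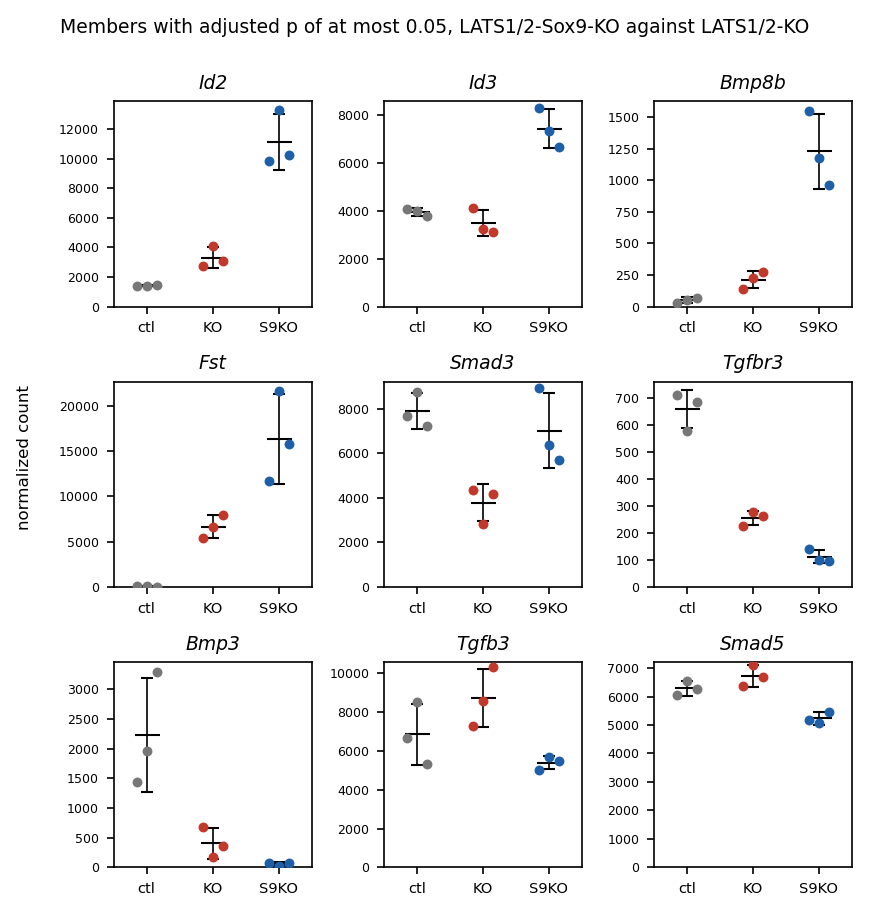
Normalized counts in each library (points), with the mean and SD of each group (ctl, control; KO, LATS1/2-KO; S9KO, LATS1/2-Sox9-KO; n = 3 each; linear axes from 0), for the 9 members whose adjusted p between the deletion groups was 0.05 or less. Id2, Id3 and Bmp8b are highest in all 3 LATS1/2-Sox9-KO libraries, while Bmp3 and Tgfbr3 step down from control to LATS1/2-KO and to LATS1/2-Sox9-KO.

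Between the deletion groups, 1 gene was called higher and 1 lower of 25 in the TGF-beta response list and of 17 in that of latent TGF-beta activation, and 1 lower of 10 in the BMP response list, against 1.55% and 2.16% of all genes. In the TGF-beta response list Lox was called higher (log2 fold change 2.51 ± 0.32, adjusted p = 0.00416) and Acta2, smooth muscle actin, lower (log2 fold change -1.34 ± 0.23, adjusted p = 0.0135). Among genes of latent TGF-beta activation, Lrrc32, which tethers latent TGF-beta to the cell surface, was called higher (log2 fold change 2.01 ± 0.45, adjusted p = 0.0307) and Itgb8, the beta subunit of another activating integrin, lower (log2 fold change -1.74 ± 0.21, adjusted p = 0.00403). Hey1 was called lower in the BMP response list (log2 fold change -1.56 ± 0.33, adjusted p = 0.0247). The calls of Lrrc32 and Hey1 were lost in 4 and 3 fits without 1 library, with adjusted p-values up to 0.0996 and 0.103. No gene was called among the extracellular modulators or the intracellular regulators by edgeR, although an unadjusted p under 0.05 was reached by 3 modulators, all lower, and by 4 regulators, 2 of them higher and 2 lower. An unadjusted p under 0.05 was reached by 4 higher and 5 lower genes of the TGF-beta response list, 2 and 1 of latent activation and 1 and 2 of the BMP response list. DESeq2 called 0 higher and 1 lower among the modulators, 0 among the regulators, 1 and 2 in the TGF-beta response list, 1 and 1 in latent activation and 0 and 2 in the BMP response list.

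Levels in counts per kilobase of exon and 1000000 counts of the library put the members on a common scale. In control, Ltbp1 (77.3 ± 31.7, mean ± SD, n = 3), Ltbp3 (72.3 ± 5.69), Skil (50.3 ± 10.6), Inhbb (44.0 ± 1.32) and Id3 (41.1 ± 1.73) were highest, and Ltbp1 and Ltbp3 lay within each other's spread. In the LATS1/2-KO group Tgfb3 (47.9 ± 8.29), Smad4 (41.7 ± 4.04), Skil (39.0 ± 8.41) and Id3 (36.3 ± 5.55) led, and the ranges of mean ± SD of neighbours in this order overlapped. In the LATS1/2-Sox9-KO group Id2 (84.7 ± 14.4), Id3 (77.2 ± 8.58), Fst (66.2 ± 20.1) and Bmp4 (54.9 ± 6.08) led. Neighbouring ranges of mean ± SD overlapped among these genes, while that of Bmp4 lay above that of the next member, Tgfbr2 (40.3 ± 6.97). Fst and Bmp4 had levels of 0.301 and 1.64 in control.

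The 13 members that did not pass the filter on low counts were Bmp5, Bmp6, Bmp10, Gdf1, Gdf2, Gdf3, Gdf6, Gdf7, Gdf10, Grem1, Inhbc, Inhbe and Smad9. Bmp10, Gdf1, Gdf2 and Gdf7 had no count in any of the 9 libraries. The 1349 exon bases of Gdf1 all lie in exons of Cers1 on the same strand, so reads of the pair cannot be told apart there. Gdf3 had no count in control and at most 6 counts in any library, and Gdf10 had none in the LATS1/2-Sox9-KO group and at most 5 elsewhere. Bmp5 was counted in all 9 libraries with at most 45 counts, Bmp6 in 8 with at most 15, and Gdf6 in 6 with at most 10.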

How the data were processed

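RNA sequencing of EYFP+ mammary cells gave 9 libraries, 3 for each genotype, grouped and numbered by their sample labels. The authors aligned reads to mm10 with STAR 2.6.0c, used featureCounts (Subread 1.6.2) with Ensembl 100 genes on read pairs that aligned properly and to 1 place, and deposited the raw counts, without mitochondrial genes. Their methods give counting on the same strand, but the library kit does not mark strand, so a gene and an antisense partner cannot be told apart where they overlap. 1 member entered the fit and the counts of members, but its own values are not reported here. All 9 columns of counts were used and the columns not used were 0.

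Counts were fitted in R 4.3.3 with edgeR 4.0.16 (filterByExpr, TMM factors, quasi-likelihood F test, 3 group means), with Benjamini-Hochberg adjustment across 19357 genes. Levels between genes were compared per kilobase of exon. Positions and symbols are from GENCODE M21 (GRCm38), which named 55190 of 55450 genes. Depth was 44167762 to 61967651 counts per library, so n = 3 and not counting error limits precision for most members. With 3 libraries against 3 an exact two-sided permutation test of a single gene cannot go below p = 0.1, so none was used. No 2 libraries of a group agreed within counting noise (chi-square per gene 17.9 to 142). The code was tested on simulated counts.

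Members, gene lists and tests were chosen with earlier results of these data known. Members described with alternatives were those called in a control comparison without overlap between groups whose higher group averaged 100 normalized counts or more (at most 15 in each direction), those with an adjusted p of at most 0.05 between the deletion groups, the 8 most counted, 12 set by name, and those without a count in a group. The remaining members, such as Gdf5, Gdf9, Gdf15 and Chrd, are named outside this rule to account for every member reported, and no alternatives were run for them singly. From each other list up to 4 genes with the largest change were named. Alternatives were DESeq2 1.42.0, RLE and upper-quartile factors, TMM without the 100 most counted genes, fits unfiltered or limited to genes with 10 or more counts in all libraries, the replicate number as a block, glmTreat, a GC offset (lowess span 0.3), the adjusted p alone, the 2 compared groups alone, and each library left out in turn. DESeq2 counts for the gene lists were added after the data were seen.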

Additional observations from a re-analysis of the deposited data

How the results depend on the processing

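Against control, the counts of members called stayed within 1.5 times of those given under most alternatives. glmTreat, which tests against a fold change of 2, called 9 members lower in the LATS1/2-KO group, and the adjusted p alone gave 21 lower in the LATS1/2-Sox9-KO group. Leaving out each library in turn gave 11 to 12 higher and 12 to 15 lower in the LATS1/2-KO group, and 11 to 12 higher and 13 to 18 lower in the LATS1/2-Sox9-KO group. Between the deletion groups glmTreat called 0 higher and 0 lower by edgeR, with 5 and 1 at an unadjusted p under 0.05, where DESeq2 without glmTreat called 6 and 3. The adjusted p alone gave 4 lower there, and leaving out a library gave 3 to 6 higher and 0 to 3 lower. Signs turned for results that were not called. With a GC offset, which lets counts depend on GC content, the log2 fold change in the LATS1/2-KO group became 0.21 for Id3, -0.23 for Smad5 and -0.34 for Bmpr1a, and in the LATS1/2-Sox9-KO group 0.0149 for Smad3 and -0.23 for Tgfbr1. Without LATS1/2-KO replicate 3 it became -0.0946 for Tgfbr2 in the LATS1/2-KO group, and without control replicate 3 it became -0.025 for Tgfbr1 in the LATS1/2-Sox9-KO group, against up to 0.2396 and 0.2874 with another library left out. The cause was not tested. Of the comparisons with control under alternatives, run for the members that met the rule for naming, 482 of the LATS1/2-KO group and 480 of the LATS1/2-Sox9-KO group kept direction and call, while 7 and 1 calls were lost and 1 and 10 gained. Normalization shifted the median over all genes by under 0.1. Replicate numbers are shared between the groups. Correlations of deviations ran from -0.06 to 0.15 for same-numbered libraries and from -0.147 to 0.0555 for differently numbered ones. The highest were those of LATS1/2-KO 2 with LATS1/2-Sox9-KO 2 (0.15) and LATS1/2-KO 1 with LATS1/2-Sox9-KO 1 (0.0986). Deviations from means of 3 libraries cannot decide whether the numbers pair the libraries. With the replicate block, 11 members rose and 14 fell in each control comparison, and 4 rose and 2 fell between the deletion groups. The block made the change of Mmp9 in the LATS1/2-Sox9-KO group 3.61. Whether depth limits the members with few counts, such as Bmp15, was not tested.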
